A study of Mus musculus with 6 samples.

Results

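The respiratory chain members described here are the genes whose symbols start with Nduf, Uqcr, Cox4 to Cox8, Atp5, mt-Nd, mt-Co, mt-Cytb or mt-Atp, together with Sdha, Sdhb, Sdhc and Sdhd. The rule left out symbols with -ps and took 110 of the 55291 genes in the table, 97 encoded in the nucleus and 13 in the mitochondrial genome. They were chosen by name, not by their values. Messenger RNA had been sequenced from tumour-associated macrophages of mouse liver tumours, in 3 TREM2+ libraries and 3 TREM2- libraries. TREM2 is a lipid-sensing surface receptor of myeloid cells. The sources used here do not give the strain, age, tumour model, treatment or sorting gate. No label ties a replicate to an animal of its own, so p-values measure only how these samples vary, and that variation may be technical. Levels are in TPM, a length-scaled unit that was rescaled so that each library sums to 1000000.

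The respiratory chain passes electrons from NADH through complex I, or from succinate through complex II, to ubiquinone, and then through complex III and cytochrome c to oxygen at complex IV. Complexes I, III and IV pump protons out of the matrix, and complex V, the ATP synthase, makes ATP as they flow back. Complexes I, III, IV and V are built from subunits of both genomes, and complex II from nuclear subunits only. In macrophages the chain also serves as a source of signals such as mitochondrial reactive oxygen species and succinate.

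Pairs of genes that share sequence set a limit on some of the values below, and the pair mt-Nd3 and Gm28438 is shown because it is the one of the aligned pairs in which a base differs. mt-Nd3 encodes a membrane subunit of complex I, and Gm28438 is an annotated copy of it on chromosome 1. The first 63 bases of each transcript are printed 5′ to 3′, with the base that differs in capitals (T3C, counted from 1 at the 5′ end of the mt-Nd3 transcript).
mt-Nd3: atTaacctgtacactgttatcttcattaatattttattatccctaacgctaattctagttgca
Gm28438: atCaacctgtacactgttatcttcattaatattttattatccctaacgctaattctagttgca
The rest of the aligned Gm28438 transcript held no other substitution. Gm28438 is 1 of 7 annotated nuclear copies of mitochondrial genes that lie together at chr1:24611535-24616197 (mm10, GENCODE M21), a stretch of 4663 bases. Across the aligned bases, Gm28661 (copy of mt-Co2), Gm10925 (mt-Atp6), Gm28437 (mt-Co3), Gm10222 (mt-Nd4l) and Gm28439 (part of mt-Nd4) had 0 substitutions.

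The libraries held 11499655 to 19941627 recovered reads. Trem2 itself had 39.6, 40.8 and 30.7 TPM in TREM2+ replicates 1, 2 and 3 and 16.9, 20.5 and 21.1 TPM in TREM2- replicates 1, 2 and 3, so the groups did not overlap, but its log2 fold change of 0.89 ± 0.22 missed the threshold used below (adjusted p 0.0855, limma). All 10 macrophage markers passed the low-value filter, 2 of them past the threshold as higher in TREM2+ libraries, with summed levels of 38092 to 49952 TPM in TREM2+ and 59087 to 73827 TPM in TREM2- libraries. Markers of other cells also differed between the groups. The 8 endothelial markers summed to 246 to 345 TPM in TREM2+ and 20.05 to 39.03 TPM in TREM2- libraries, with 7 of 8 past the threshold, and the 5 basophil and mast cell markers to 15.9 to 25.0 against 116 to 209 TPM, with 3 of 5 past it. Repeat transcripts of the Gm10800 family took from 0.43% to 24.6% of a library's TPM.

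Of the 105 members that passed the filter on low values, 2 passed the threshold of 0.05 on limma's adjusted p (Benjamini-Hochberg over all genes tested), Cox4i2 higher and Ndufaf7 lower in TREM2+ libraries. Over all 13788 genes tested, 2.42% passed, 2.05% higher and 0.37% lower. Without adjustment 5 members had a p under 0.05 (limma), the others being Cox7a1 and Ndufa4l2 (higher) and Ndufb11 (lower). Of all genes, 7.45% were under it as higher and 5.34% as lower. The count depended on the fit. It was 22 of 104 members with voom on recovered reads, against 2829 of 13346 genes. With the repeat family set aside it was 29 of 106, against 3227 of 14242. The groups did not overlap for 14 members, 7 wholly higher and 7 wholly lower in TREM2+ libraries, or 13.3%, against 16.7% of all genes tested (9.07% higher and 7.62% lower). The median log2 fold change, TREM2+ minus TREM2-, was -0.05 over the tested members and -0.09 over all genes tested. The other 5 members, Cox7b2, Cox8b, Cox8c, Ndufa11b and Ndufs6b, reached 1 TPM in fewer than 3 libraries.

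**Figure D1:**
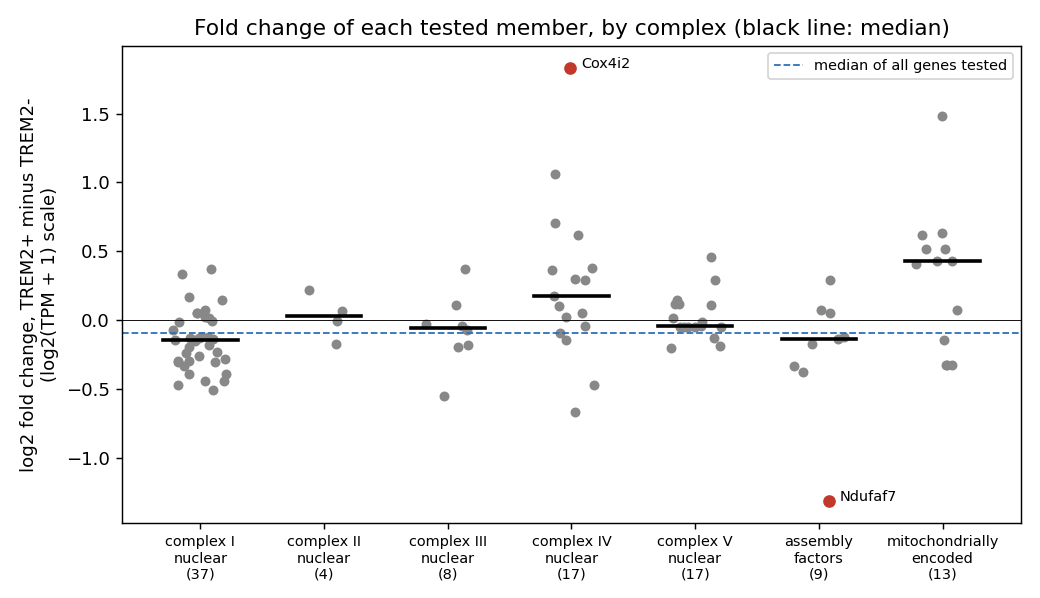
Log2 fold change (TREM2+ minus TREM2-, log2(TPM + 1) scale) of each of the 105 tested members, by complex, with the number tested in brackets. Each point is 1 gene, red where the adjusted p was under 0.05, the black line is the median of the group of genes and the dashed line the median of all genes tested (-0.09); complex I lies mostly below 0 (28 of 37) and complex IV mostly above it (12 of 17). Of those 12, 4 are restricted isoforms with few reads.

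The 13 mitochondrially encoded members differed more between libraries of 1 group than between the groups. Their summed level was 90455, 32843 and 60523 TPM in TREM2+ replicates 1, 2 and 3 and 112559, 21323 and 25957 TPM in TREM2- replicates 1, 2 and 3. The means were 61274 ± 28813 and 53279 ± 51390 TPM (SD, n = 3). TREM2- replicate 1 was the highest of the 6 libraries, the other TREM2- libraries were the lowest, and the TREM2+ libraries lay between them. The highest TREM2+ library held 2.75 times the lowest, and the highest TREM2- library 5.28 times the lowest, against 1.27 times in both groups for the summed nuclear members. In bulk RNA, fewer cells of a type and less RNA per cell cannot be told apart.

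None of the 13 passed limma's test (smallest adjusted p 0.552, 0 at an unadjusted p under 0.05, 0 by voom on recovered reads), and the groups overlapped for every one. Their median log2 fold change was 0.43, with 9 above and 4 below 0. Without TREM2- replicate 1 it was 1.12, and without TREM2+ replicate 2 it was 0.76. Leaving out TREM2- replicate 2 gave 0.04, TREM2- replicate 3 gave 0.14 and TREM2+ replicate 1 gave 0.11. The share of the Gm10800 repeat family was 0.70%, 5.05% and 17.5% in the TREM2+ and 0.43%, 12.9% and 24.6% in the TREM2- libraries, and its part in these differences was not tested.

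mt-Cytb, the only mitochondrially encoded subunit of complex III, had the highest level of all members. It stood at 34961, 12254 and 25980 TPM in TREM2+ replicates 1, 2 and 3 and at 44186, 8452 and 10183 TPM in TREM2- replicates 1, 2 and 3. mt-Co1, the catalytic core of complex IV, came second with 24997, 9973 and 16612 TPM in TREM2+ and 30746, 6936 and 7883 TPM in TREM2- libraries. Both followed the order of the sum, with replicate 1 highest and replicate 2 lowest in each group. mt-Cytb took 39.6% ± 2.93 of the mitochondrially encoded TPM in TREM2+ and 39.4% ± 0.23 in TREM2- libraries (SD, n = 3). This share varied far less between libraries than the level did.

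The complex I core subunits mt-Nd1, mt-Nd2, mt-Nd4, mt-Nd5 and mt-Nd6 form its membrane arm. mt-Nd1 had 16401, 5440 and 9786 TPM in TREM2+ replicates 1, 2 and 3 and 20191, 2899 and 3996 TPM in TREM2- replicates 1, 2 and 3. The other 4 ranged from 598 TPM (mt-Nd5 in TREM2- replicate 3) to 6763 TPM (mt-Nd2 in TREM2- replicate 1). Their log2 fold changes lay between 0.41 ± 0.54 for mt-Nd6 and 0.63 ± 0.69 for mt-Nd1 (standard error), so each standard error was larger than the difference. mt-Nd5 and mt-Nd6 overlap on opposite strands, and since no strand setting is given, their reads cannot be told apart where they overlap.

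The remaining mitochondrially encoded members had far lower levels, and of these all but mt-Atp8 shared most of their sequence with annotated transcripts of other genes. Of all stretches of 50 bases in mt-Co2, 100% also occurred in the transcripts of other genes, as did 99.9% of those in mt-Co3, 99.5% in mt-Atp6, 98.8% in mt-Nd4l and 98.0% in mt-Nd3. mt-Cytb, mt-Nd1, mt-Nd6 and mt-Atp8 shared 0%, mt-Nd5 7.61%, mt-Nd2 8.19%, mt-Co1 51.1% and mt-Nd4 62.2%. The 5 members with at least 90% shared summed to 169 to 590 TPM in TREM2+ and 91.1 to 676 TPM in TREM2- libraries, while the 6 with under 10% shared summed to 21329 to 61133 and 13467 to 76613 TPM. The sources used here do not say how the authors counted reads that map to more than 1 place. A low level of these members is therefore not read as low expression.

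mt-Co2 and mt-Co3 complete the catalytic core of complex IV. mt-Co3 had 180.9, 38.1 and 51.1 TPM in TREM2+ replicates 1, 2 and 3 and 225.8, 40.7 and 76.1 TPM in TREM2- replicates 1, 2 and 3. Its nuclear copy Gm28437 held more recovered reads than mt-Co3 in every library, with 2998, 1546 and 2043 against 1093, 213 and 257 reads in the TREM2+ libraries. In the TREM2- libraries the copy held 3117, 415 and 896 reads and mt-Co3 1578, 238 and 384. mt-Co2 had 70.2, 15.4 and 21.9 TPM in TREM2+ and 89.9, 12.4 and 28.6 TPM in TREM2- libraries, and its copy Gm28661 149.0, 52.7 and 65.6 against 183.0, 26.6 and 57.3 TPM. For these 2 members the row of the copy was higher than that of the member in all 6 libraries.

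mt-Atp6 forms the proton channel of complex V with the nuclear-encoded c ring. It had 95.2, 22.2 and 28.6 TPM in TREM2+ replicates 1, 2 and 3 and 125.2, 23.6 and 40.6 TPM in TREM2- replicates 1, 2 and 3. The row of its copy Gm10925 was again higher in every library, with 145.2, 55.0 and 69.4 TPM in TREM2+ and 169.1, 32.0 and 63.3 TPM in TREM2- libraries. mt-Atp8, which overlaps mt-Atp6 on the same strand and shared 0% of its stretches with other transcripts, had only 3 to 40 recovered reads per library, or 2.06 to 21.999 TPM. mt-Nd4l, which overlaps mt-Nd4, had 2 to 14 reads. Counts this low limit the precision of both members. The 0% for mt-Atp8 covers annotated transcripts only. The nuclear stretch between Gm28661 and Gm10925, copies of the genes on either side of mt-Atp8, was not compared. Its low level is therefore not read as low expression either.

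mt-Nd3 showed the largest fitted difference of the 13. It had 241.2, 89.5 and 172.3 TPM in TREM2+ replicates 1, 2 and 3 and 229.9, 13.5 and 51.4 TPM in TREM2- replicates 1, 2 and 3. TREM2- replicates 2 and 3 were the lowest, and TREM2- replicate 1 lay within the TREM2+ range. The log2 fold change was 1.48 ± 0.84 with an adjusted p of 0.552 (limma). With limma's library weights it was 3.13, past the threshold. Its copy Gm28438, printed above, had 10.4 to 15.04 TPM in TREM2+ and 2.33 to 12.03 TPM in TREM2- libraries.

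**Figure D2:**
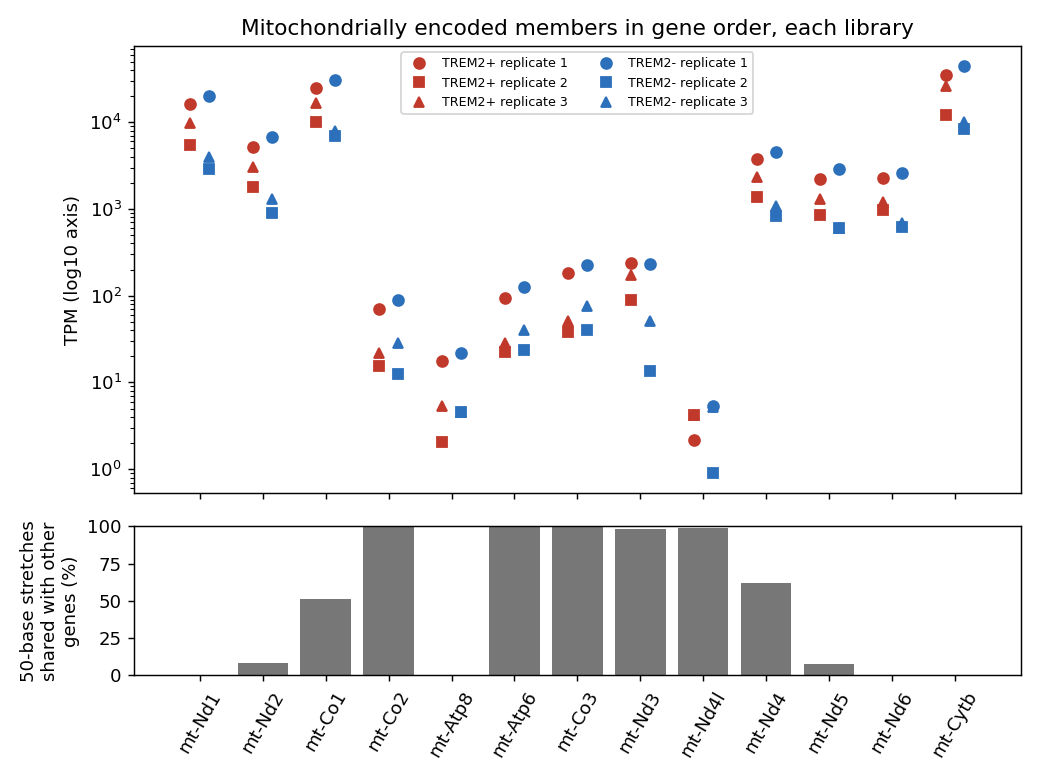
Upper panel: TPM (log10 axis) of each mitochondrially encoded member in each of the 6 libraries, in gene order along the mitochondrial genome, with colour for the group and marker shape for the replicate. Lower panel: share of each gene's 50-base stretches that also occur in transcripts of other genes; mt-Co2, mt-Atp6, mt-Co3, mt-Nd3 and mt-Nd4l, shared at 98.0% or more, lie below mt-Nd1, mt-Co1 and mt-Cytb in all 6 libraries.

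The 92 tested nuclear-encoded members were held within a narrower range. Their summed level, all 97 included, was 17131, 16579 and 13443 TPM in TREM2+ replicates 1, 2 and 3 and 18253, 16838 and 14322 TPM in TREM2- replicates 1, 2 and 3. The groups overlapped, at 15718 ± 1989 and 16471 ± 1991 TPM (SD, n = 3). The median log2 fold change was -0.05, with 57 below and 35 above 0, against 61.0% of all genes tested below 0. The sign of that median depended on the scaling and on single libraries: it was 0.03 with median-of-ratios scaling, 0.01 without TREM2- replicate 1 and 0.05 without TREM2+ replicate 3. As a share of the TPM left after mitochondrial rows and the repeat family were set aside, nuclear members took 1.92%, 1.82% and 1.77% in TREM2+ and 2.09%, 1.99% and 1.98% in TREM2- libraries, where the groups did not overlap. Fold changes of all genes tested also lay mostly below 0 when the repeat family was set aside. With only that family set aside, the median log2 fold change was -0.13 over the nuclear members, against -0.16 over all genes tested. Below 0 were 74.2% of the nuclear members and 68.2% of all genes. These values weight each gene alike and keep the mitochondrial rows, so they are not the same measure as the share.

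Complex I, which oxidises NADH, had 37 tested nuclear-encoded members. Their log2 fold changes were below 0 for 28 and above 0 for 9, or 75.7% below 0 against 61.0% of all genes tested, with a median of -0.14. None passed limma's adjusted threshold in the main fit, and 0 passed with voom on recovered reads. In the main fit 1 had an unadjusted p under 0.05 (limma), against 1763 of 13788 genes tested. This count was 12 with voom, against 2829 of 13346 genes, and 17 with the repeat family set aside, against 3227 of 14242. The summed level was 5729, 5617 and 4376 TPM in TREM2+ replicates 1, 2 and 3 and 6490, 6376 and 5195 TPM in TREM2- replicates 1, 2 and 3. At this scaling the groups overlapped, because TREM2- replicate 3 lay below TREM2+ replicates 1 and 2. The Gm10800 repeat family took 24.6% of the TPM of TREM2- replicate 3. The difference of the mean sums was -780 TPM, and -1247 TPM with the repeat family set aside. Overlap of the sums was not examined with the family set aside. Across the scalings and the libraries left out, the median stayed below 0, from -0.24 without TREM2- replicate 3 to -0.03 without TREM2+ replicate 3.

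The 7 nuclear core subunits carry the flavin and the iron-sulphur clusters along which electrons move. All 7 had a log2 fold change below 0, from -0.44 for Ndufs8 to -0.12 for Ndufv2, with a median of -0.26. The groups overlapped for each, and none passed limma's adjusted threshold in the main fit or by voom. An unadjusted p under 0.05 (limma) was found for 0 in the main fit, 4 with voom and 5 with the repeat family set aside. The count of 7 below 0 held in each of the alternative fits, with medians from -0.42 without TREM2- replicate 3 to -0.11 without TREM2- replicate 1. Ndufs8, which holds a pair of the clusters, had 221.5, 258.6 and 182.2 TPM in TREM2+ replicates 1, 2 and 3 and 331.1, 308.6 and 257.4 TPM in TREM2- replicates 1, 2 and 3. Only TREM2+ replicate 2 exceeded the lowest TREM2- library. Ndufs8 had a log2 fold change of -0.44 ± 0.23 and an adjusted p of 0.488 (limma).

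The 29 tested accessory subunits surround the core and are needed for its assembly and stability. Of them, 21 were below 0 and 8 above, with a median of -0.13. Ndufb11, a membrane-arm subunit encoded at chrX:20615326-20617619, had 193.3, 208.2 and 150.8 TPM in TREM2+ replicates 1, 2 and 3 and 264.9, 279.3 and 235.4 TPM in TREM2- replicates 1, 2 and 3. Every TREM2+ library lay below every TREM2- library. The means were 184.1 ± 29.8 and 259.9 ± 22.4 TPM (SD, n = 3), the log2 fold change -0.50 ± 0.22 and the adjusted p 0.372 (limma). Ndufb11 overlaps the neighbouring gene Rbm10, so some of its reads may belong to that gene. The same limit holds for other members named below, among them Ndufb5 (overlapped by Mrpl47), Ndufaf3 (Impdh2), Ndufa4l2 (Shmt2) and Cox6a2 (Itgad).

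Ndufa1, the most abundant complex I member of the nucleus and also X-linked, had 651.1, 632.7 and 467.3 TPM in TREM2+ replicates 1, 2 and 3 and 810.3, 920.8 and 681.8 TPM in TREM2- replicates 1, 2 and 3. The groups again did not overlap, with a log2 fold change of -0.47 ± 0.24 and an adjusted p of 0.486 (limma). Ndufb2 and Ndufb5 were the other accessory subunits wholly lower in TREM2+ libraries, with log2 fold changes of -0.28 and -0.29. Ndufa5, an accessory subunit of the arm that faces the matrix, was the only complex I member wholly higher. It had 114.9, 96.4 and 92.8 TPM in TREM2+ and 86.9, 81.0 and 72.1 TPM in TREM2- libraries, with a log2 fold change of 0.34 ± 0.20. None of these differences passed the test. The paralogue Ndufb4c had 1.03 to 2.80 TPM and shared 100% of its stretches with other transcripts, so its value is uncertain.

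Assembly factors build the complexes without staying in them, and 9 were tested. Ndufaf7, a methyltransferase needed for the assembly of complex I, was the member that passed the test as lower. It is encoded at chr17:78937136-78948052 on the plus strand (Ensembl ENSMUSG00000024082.5). Ndufaf7 had 11.7, 16.7 and 10.8 TPM in TREM2+ replicates 1, 2 and 3 and 42.2, 34.1 and 25.4 TPM in TREM2- replicates 1, 2 and 3. The highest TREM2+ library lay below the lowest TREM2- library.

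The mean level of Ndufaf7 was 13.0 ± 3.18 TPM in TREM2+ and 33.9 ± 8.41 TPM in TREM2- libraries (SD, n = 3), from 242 to 416 and 573 to 1319 recovered reads. The log2 fold change was -1.31 ± 0.27 with an adjusted p of 0.0406 (limma). An exact permutation test (two-sided) gave a p of 0.10, the smallest that 3 against 3 libraries allow. The direction held with each library left out, from -1.50 without TREM2- replicate 3 to -1.14 without TREM2- replicate 1, but the call did not. The adjusted p (limma) was 0.0921, 0.0547 and 0.0580 without TREM2- replicates 1, 2 and 3, 0.134 without TREM2+ replicate 1 and 0.118 without TREM2+ replicate 3. It was 0.0415 without TREM2+ replicate 2. Over the 18 settings in all Ndufaf7 passed in 8, and it was also lost with the replicate block (0.0781), the deposited values (0.0892), no low-value filter (0.150), mitochondrial rows left out (0.0551) and both libraries numbered 3 left out (0.228).

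Beside Ndufaf7, the summed basophil and mast cell markers were 15.9 to 25.0 TPM in TREM2+ and 116 to 209 TPM in TREM2- libraries, the summed T and NK cell markers 1076 to 1145 and 1623 to 3813 TPM, and the summed macrophage markers 38092 to 49952 and 59087 to 73827 TPM. Their part in the result was not tested. Ndufaf7 starts close to Cebpz, a gene on the other strand that encodes a CCAAT-binding transcription factor. The 69 bases between the annotated starts, chr17:78937067-78937135 (GRCm38.p6, plus strand), are printed because both genes are transcribed away from them.
Cebpz-Ndufaf7 interval: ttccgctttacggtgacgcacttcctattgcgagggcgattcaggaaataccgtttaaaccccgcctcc
No letters are capitalised, since none of the 3 motifs searched below was found in this interval. Cebpz had 10.9, 11.5 and 7.66 TPM in TREM2+ replicates 1, 2 and 3 and 15.2, 11.4 and 9.98 TPM in TREM2- replicates 1, 2 and 3. The groups overlapped for Cebpz, with a log2 fold change of -0.25 ± 0.25, so the 2 neighbours had different fitted changes, a difference that was not tested.

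None of the other assembly factors passed the test. Ndufaf3, an early factor of complex I, had 29.4, 34.7 and 27.1 TPM in TREM2+ and 46.4, 38.5 and 34.3 TPM in TREM2- libraries, with a log2 fold change of -0.37. Ndufaf6, another assembly factor of complex I, was wholly lower in TREM2+ libraries, at 15.01 to 17.6 against 19.0 to 21.2 TPM, with a log2 fold change of -0.33. Ndufaf2 was wholly higher, at 5.39 to 5.56 against 4.02 to 4.63 TPM, with a log2 fold change of 0.29. Cox7a2l, a factor that helps join complexes III and IV into supercomplexes, was the most abundant of the 9, with 119.7 to 177.3 TPM in TREM2+ and 144.6 to 172.2 TPM in TREM2- libraries.

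Complex II, which passes electrons from succinate to ubiquinone, showed no member past the threshold (0 of 4 in limma, 0 at an unadjusted p under 0.05, 0 by voom). Its summed level was 994.6 ± 129 TPM in TREM2+ and 994.6 ± 144 TPM in TREM2- libraries (SD, n = 3). Sdhd, a membrane anchor and the most abundant of the 4, had 598.4, 565.2 and 455.0 TPM in TREM2+ and 525.3, 579.4 and 437.7 TPM in TREM2- libraries. The log2 fold changes were -0.17 for Sdhb, the iron-sulphur subunit, -0.01 for Sdha, the flavoprotein that oxidises succinate, 0.07 for Sdhd and 0.22 for Sdhc. The groups overlapped for all 4.

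In complex III, 0 of 8 nuclear-encoded members passed limma's test (0 at an unadjusted p under 0.05, 0 by voom), with a median log2 fold change of -0.06. Uqcrc1, a core protein that faces the matrix, had 185.5, 212.7 and 137.8 TPM in TREM2+ replicates 1, 2 and 3 and 282.3, 301.7 and 200.8 TPM in TREM2- replicates 1, 2 and 3. TREM2+ replicate 2 lay above TREM2- replicate 3, so the groups overlapped. The log2 fold change was -0.55 ± 0.26 and the adjusted p 0.432 (limma). Uqcrb, a ubiquinone-binding subunit, went the other way, with 565.7, 534.2 and 499.3 TPM in TREM2+ and 467.6, 395.6 and 376.1 TPM in TREM2- libraries. Every TREM2+ library was higher for Uqcrb, but at 0.37 ± 0.21 the log2 fold change had an adjusted p of 0.534 (limma), and 25.4% of its stretches are shared with other transcripts. Uqcr11, a small subunit, had a log2 fold change of -0.19.

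Complex IV, cytochrome c oxidase, had 17 tested nuclear-encoded members, Ndufa4 and its paralogue Ndufa4l2 included. Fold changes were above 0 for 12 and below 0 for 5, against 39.0% of all genes tested above 0, with a median log2 fold change of 0.18. The 17 include 5 restricted forms with few reads, of which 4 were above and 1 below 0, at a median of 0.71. Among the common subunits, Cox4i1, Cox6a1, Cox7b and Ndufa4 were below 0 and the others above it. In TREM2+ libraries 4 members were wholly higher and 1 wholly lower, against 9.07% and 7.62% of all genes tested. Of those wholly higher, only Cox5a is a common subunit, while Cox4i2, Cox7a1 and Cox6c2 are low restricted forms or paralogues. The median stayed above 0 in each alternative fit, from 0.05 with the deposited values to 0.30 without TREM2- replicate 1. Cox4i2 was the only member of the complex past the threshold. Several subunits of complex IV exist in a widely expressed form and in a form restricted to certain tissues or induced by low oxygen.

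Cox4i2, the less common form of subunit 4, which replaces Cox4i1 in certain cells and is tied to oxygen sensing, was higher in TREM2+ libraries. It is encoded at chr2:152754173-152765037 on the plus strand (Ensembl ENSMUSG00000009876.13). Cox4i2 had 16.3, 13.0 and 17.8 TPM in TREM2+ replicates 1, 2 and 3 and 3.27, 3.57 and 4.14 TPM in TREM2- replicates 1, 2 and 3. These rest on 99, 73 and 90 recovered reads against 23, 21 and 21. The lowest TREM2+ library was well above the highest TREM2- library.

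The mean level of Cox4i2 was 15.7 ± 2.45 TPM in TREM2+ and 3.66 ± 0.44 TPM in TREM2- libraries (SD, n = 3), a ratio of 4.28. The log2 fold change was 1.83 ± 0.23 with an adjusted p of 0.00573 (limma), and Cox4i2 passed the threshold with each of the 6 libraries left out, at log2 fold changes of 1.74 to 1.95. Over 18 settings in all it passed in 17, with adjusted p between 0.000661 and 0.145 (limma). The one loss was in the fit without both libraries numbered 3, in which no gene of the table passed. The exact permutation test (two-sided) gave the smallest p that 3 against 3 libraries allow, 0.10.

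Cox4i1, the common form, did not pass the test (adjusted p 0.883, limma). Cox4i1 had 567.9, 546.8 and 397.5 TPM in TREM2+ replicates 1, 2 and 3 and 597.0, 576.7 and 478.8 TPM in TREM2- replicates 1, 2 and 3, which overlapped, with a log2 fold change of -0.14 ± 0.23. Cox4i2 made up 2.79%, 2.32% and 4.28% of the TPM of the 2 forms in TREM2+ and 0.55%, 0.62% and 0.86% in TREM2- libraries. Cox4i1 thus remained the dominant form in all 6.

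The endothelial markers moved with Cox4i2, with 7 of 8 past the threshold as higher in TREM2+ libraries and sums of 246 to 345 against 20.05 to 39.03 TPM. The 6 stellate cell and fibroblast markers summed to 11.8 to 15.6 TPM in TREM2+ and 12.4 to 28.6 TPM in TREM2- libraries, and of these Col1a1, Col1a2 and Pdgfrb were under 1 TPM in all libraries. The part of other cells in the Cox4i2 result was not tested.

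Cox7a1, the form of subunit 7a typical of heart and skeletal muscle, had 9.46, 7.34 and 9.90 TPM in TREM2+ replicates 1, 2 and 3 and 4.61, 5.26 and 5.23 TPM in TREM2- replicates 1, 2 and 3. The groups did not overlap, but the log2 fold change of 0.71 ± 0.22 had an adjusted p of 0.189 (limma) and rested on 18 to 39 reads per library. Cox7a2, the common form, had 293.1, 245.3 and 252.3 TPM in TREM2+ and 276.0, 228.2 and 198.6 TPM in TREM2- libraries, with a log2 fold change of 0.18.

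Ndufa4l2, a paralogue of Ndufa4 induced by hypoxia-inducible factor, had 6.40, 2.18 and 3.98 TPM in TREM2+ replicates 1, 2 and 3 and 1.02, 2.45 and 0.85 TPM in TREM2- replicates 1, 2 and 3. TREM2+ replicate 2 lay below TREM2- replicate 2. The log2 fold change was 1.06 ± 0.38 with an adjusted p of 0.254 (limma). Ndufa4, now counted as a subunit of complex IV, was wholly lower in TREM2+ libraries, with 174.6, 183.8 and 124.7 TPM against 251.4, 215.8 and 196.7 TPM. Its log2 fold change was -0.47 ± 0.23 and its adjusted p 0.476 (limma). Ndufa4l2 took 3.53%, 1.17% and 3.09% of the TPM of this pair in TREM2+ and 0.41%, 1.12% and 0.43% in TREM2- libraries.

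The other restricted forms were low and did not separate the groups. Cox6a2, the muscle form of subunit 6a, had 5.91, 2.89 and 6.18 TPM in TREM2+ and 12.04, 0.79 and 2.74 TPM in TREM2- libraries, so TREM2- replicates 1 and 2 held the highest and the lowest value. Cox6b2, a form typical of testis, had 3.63, 5.82 and 2.39 TPM in TREM2+ and 6.68, 8.84 and 4.63 TPM in TREM2- libraries, with a log2 fold change of -0.66 ± 0.33 and overlapping groups. Cox7b2 and Cox8c stayed at or below 2.01 and 1.17 TPM, and Cox8b was listed at 0 in all 6 libraries.

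**Figure D3:**
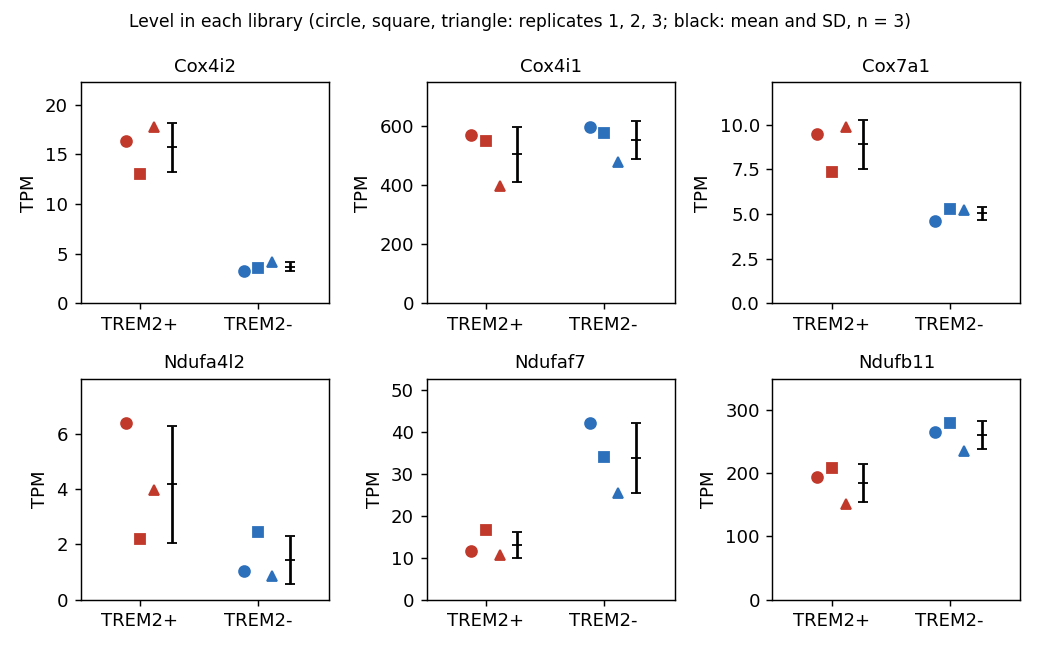
TPM of 6 members in each library, TREM2+ in red and TREM2- in blue, with circle, square and triangle for replicates 1, 2 and 3 and a black bar for mean ± SD (n = 3 per group). Cox4i2 (13.0 to 17.8 against 3.27 to 4.14 TPM) and Ndufaf7 (10.8 to 16.7 against 25.4 to 42.2 TPM) are the members past the threshold, while Cox4i1 and Ndufa4l2 overlap between the groups.

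Among the common subunits of complex IV, Cox8a had 953.1, 827.4 and 751.9 TPM in TREM2+ replicates 1, 2 and 3 and 804.8, 611.2 and 648.6 TPM in TREM2- replicates 1, 2 and 3, with a log2 fold change of 0.30 and overlapping groups. Cox6a1 was the most abundant nuclear-encoded member of the complex by its mean, at 659.0 to 847.8 TPM in TREM2+ and 753.2 to 908.1 TPM in TREM2- libraries, and had a log2 fold change of -0.09. Cox6b1 and Cox7b had log2 fold changes of 0.10 and -0.04. Cox5a, which sits beside subunit 4 in the complex, was wholly higher in TREM2+ libraries, with 182.3, 169.2 and 158.4 TPM against 144.4, 126.7 and 123.8 TPM, but at 0.37 ± 0.20 it had an adjusted p of 0.517 (limma). Cox6c2, a paralogue of Cox6c, was also wholly higher, at 2.81 to 6.07 against 1.74 to 2.69 TPM, with 52.7% of its stretches shared with other transcripts.

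Complex V had 17 tested nuclear-encoded members, 10 below and 7 above 0, with a median log2 fold change of -0.04, and 0 passed limma's test (0 at an unadjusted p under 0.05, 0 by voom). The groups overlapped for all of them. Atp5g2, which encodes the c subunit of the rotor from 1 of 3 genes, had 41.1, 37.4 and 31.4 TPM in TREM2+ and 32.7, 21.9 and 25.1 TPM in TREM2- libraries, a log2 fold change of 0.46 ± 0.23. Of its stretches, 38.3% are shared with other transcripts. The other c subunit genes Atp5g1 and Atp5g3 had log2 fold changes of -0.05 and 0.11. Atp5c1, the central stalk, had 331.6, 353.5 and 264.6 TPM in TREM2+ and 428.8, 329.9 and 320.6 TPM in TREM2- libraries, at -0.18. Atp5h, part of the peripheral stalk, and Atp5md, a small membrane subunit, were at -0.20 and 0.29.

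A share within the members does not depend on how a library is scaled. Complex I took 33.4%, 33.9% and 32.6% of the nuclear-encoded member TPM in TREM2+ replicates 1, 2 and 3 and 35.6%, 37.9% and 36.3% in TREM2- replicates 1, 2 and 3. Complex IV took 27.04%, 26.0% and 26.9% in TREM2+ and 24.9%, 23.2% and 25.0% in TREM2- libraries. Every TREM2+ library thus had a lower share of complex I and a higher share of complex IV than every TREM2- library. The shares of complexes II, III and V overlapped between the groups.

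The group means were 33.3% ± 0.68 against 36.6% ± 1.18 for complex I and 26.6% ± 0.58 against 24.4% ± 0.997 for complex IV (SD, n = 3), and no test was made of a sum over the members. The 5 shares sum with that of the assembly factors to the whole, so they are not independent of each other. The difference was -3.27 percentage points for complex I and 2.26 for complex IV, and with a library left out it ranged from -3.78 to -2.62 and from 1.69 to 2.59. Without Ndufa1 the complex I share was 30.1% to 31.3% in TREM2+ and 32.6% to 34.3% in TREM2- libraries, and without Cox6a1 the complex IV share was 21.995% to 23.3% and 19.3% to 20.9%. The groups stayed apart in both, and also when Ndufa4 was counted in complex I. The ratio of complex I to complex IV was 1.24, 1.30 and 1.21 in TREM2+ and 1.43, 1.63 and 1.45 in TREM2- libraries. Absolute sums did not separate the groups at the main scaling.

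**Figure D4:**
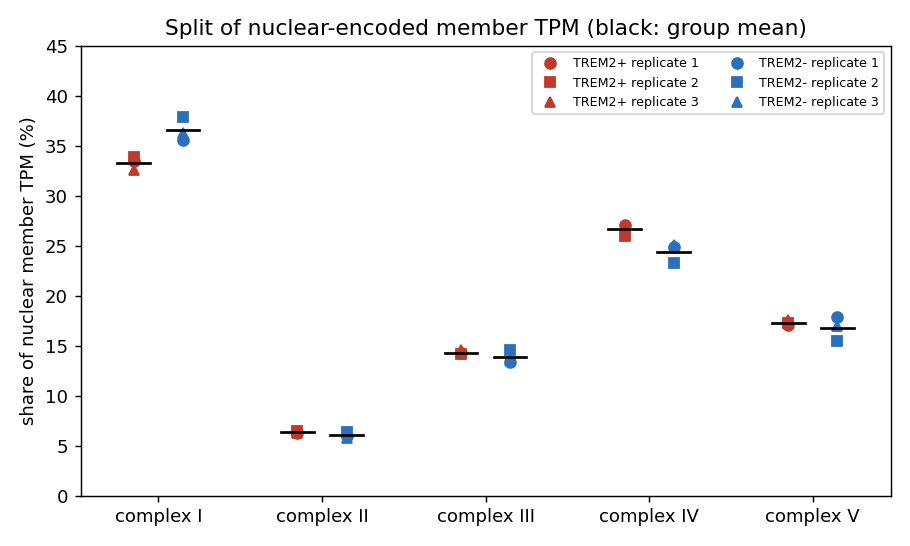
Share of the nuclear-encoded member TPM (%) taken by each complex in each library, with colour for the group, marker shape for the replicate and a black line for the group mean (n = 3). The groups do not overlap for complex I (32.6% to 33.9% in TREM2+, 35.6% to 37.9% in TREM2-) or complex IV (26.0% to 27.04%, 23.2% to 25.0%), and do for complexes II, III and V.

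The balance of the 2 genomes followed the mitochondrial level. Mitochondrially encoded members took 84.1%, 66.5% and 81.8% of all member TPM in TREM2+ and 86.0%, 55.9% and 64.4% in TREM2- libraries, at means of 77.5% ± 9.59 and 68.8% ± 15.5 (SD, n = 3). The groups overlapped, and the difference of 8.66 percentage points became 17.3 without TREM2- replicate 1 and 2.21 without TREM2- replicate 2. It was 14.2 without TREM2+ replicate 2 and 5.35 without TREM2+ replicate 1. In complex III the mitochondrial subunit stood at 14.3, 5.21 and 13.3 times the sum of the nuclear ones in TREM2+ and 18.1, 3.43 and 5.24 times in TREM2- libraries. In complex I the ratio was 5.26, 1.88 and 4.07 in TREM2+ and 5.73, 0.92 and 1.49 in TREM2- libraries. In TREM2- replicate 2 the listed TPM of the nuclear subunits thus summed to more than that of the mitochondrial ones. That sum includes mt-Nd4, mt-Nd3 and mt-Nd4l, which shared 62.2%, 98.0% and 98.8% of their stretches with other transcripts. No excess of nuclear over mitochondrial transcripts is therefore read from it.

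Nuclear respiratory genes are known targets of the factors NRF1, the ETS factor GABP and YY1. Of the 97 nuclear-encoded members, 76 had at least 1 window of 300 bases around a start in the RefSeq promoter table (GRCm38.p6). A gene was counted if any of its windows held a match. GCATGCG, the centre of the NRF1 site, was found on either strand in 17.1% of these genes against 4.01% of all 27025 genes, expressed or not. CCGGAAG, the ETS core, was found in 25.0% against 9.93%, and AAGATGG, the YY1 core, in 15.8% against 7.28%. The ETS letters end and the YY1 letters begin with AAG, so matches of the 2 can overlap. At least 1 of the 3 was found in 47.4% of these members and 19.3% of all genes, and the median GC content was 58.4% and 52.8%. The windows of complex I members held 1 of the 3 in 14 of 32 genes and those of complex IV in 4 of 13. A match describes the letters only.

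Other genes of mitochondrial respiration, in 8 lists with 216 genes tested, gave 0 calls in limma, 9 at an unadjusted p under 0.05 and 2 (Mrpl33 and Vdac1) by voom on recovered reads. Their median log2 fold change was -0.10, with 67.6% below 0 against 61.0% of all genes tested. Vdac1, a major pore of the outer mitochondrial membrane, had 77.3, 74.7 and 80.6 TPM in TREM2+ replicates 1, 2 and 3 and 45.3, 40.2 and 38.5 TPM in TREM2- replicates 1, 2 and 3. The groups did not overlap, and the log2 fold change of 0.89 ± 0.19 had an adjusted p of 0.0539 (limma).

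Acod1, which diverts the tricarboxylic acid cycle to itaconate, an inhibitor of complex II, had 260.8, 117.5 and 524.5 TPM in TREM2+ and 79.3, 76.9 and 35.1 TPM in TREM2- libraries. The groups did not overlap for Acod1, with a log2 fold change of 2.06 ± 0.52 and an adjusted p of 0.0948 (limma), and it passed in 2 of the 6 fits with a library left out, those without replicate 2 of either group. Bnip3, a mitophagy receptor induced by low oxygen, had 616.9, 383.0 and 510.7 against 169.1, 373.2 and 189.0 TPM, a log2 fold change of 1.11 ± 0.33 and an adjusted p of 0.165 (limma). Bnip3 passed in 1 such fit, that without TREM2- replicate 2. Pparg, a lipid-regulated nuclear receptor, had a log2 fold change of 0.92. Polrmt, the mitochondrial RNA polymerase, and Mrpl33, a protein of the mitochondrial ribosome, were at -0.61 and -0.65. Cox20 and Bcs1l, assembly factors of complexes IV and III, were at -0.69 and -0.29, and none of these passed limma's threshold.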

How the data were processed

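Polyadenylated RNA was sequenced in paired ends, and the submitters' processing notes name STAR 2.7.10a, Subread, featureCounts 2.0.3 and the build mm10. The sources used here do not give the annotation or the strand setting. The authors deposited a length-scaled signal named as TPM, in which the 6 columns together sum to 1000000. Each column was therefore rescaled to 1000000, as the member rule asks and as the plan of the test set out. Multiplying by exon lengths of GENCODE M21 gave whole reads (within 0.01 read) for 98.7% of 36714 matched genes above 0. The reads serve to judge precision, which covers counting error only. Of the members, 109 matched the annotation, all but Atp5o.

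The test was limma 3.58.1 (R 4.3.3), two-sided, with a variance trend, on log2(TPM + 1) of genes that reached 1 TPM in at least 3 libraries. P-values were adjusted by Benjamini-Hochberg over all genes, with a threshold of 0.05. The fit was tested on simulated counts only, drawn from 1 mean profile for all libraries apart from set changes between the groups. These lacked the differences in repeat and mitochondrial content between the real libraries. They therefore do not show how the fit behaves under such differences. Fold changes are on that log2 scale, which understates low genes, and errors after them are standard errors. Alternatives covered the pseudocount, filter, scaling, voom, library weights, a replicate block, libraries left out and the threshold. Shares without the most abundant member and with Ndufa4 moved were added after seeing the data. The members and lists were chosen with earlier results of these data known.

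The text names the members past the threshold, the mitochondrially encoded ones, the 3 with the smallest p and the most abundant in each complex, and the restricted isoforms with their common forms. It also names the gene with the smallest p of each other list. Ndufv2, the members whose groups did not overlap, Ndufb4c, Sdha, Atp5g1, Atp5g3, Cebpz and the nuclear copies were named after their values were seen. Of the marker lists, B and plasma cell (2432 to 4374 TPM in TREM2+, 2588 to 9888 in TREM2-), neutrophil (15380 to 18985, 17052 to 21472), hepatocyte (162 to 465, 103 to 690) and erythroid (4229 to 26385, 8622 to 30655) are given here only. The values of 1 member are not reported here.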

Additional observations from a re-analysis of the deposited data

How the results depend on the processing

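The 2 calls among the members became 1 with the deposited values not rescaled, without the low-value filter, without mitochondrial rows and with a replicate block (Cox4i2 in each), 0 without both libraries numbered 3, and 5 with library weights (Atp5g2, Cox4i2, Cox7a1, Ndufaf7 and mt-Nd3). With a library left out there were 1 to 2. Over all genes, the 333 calls became 98 without the filter, 126 with the replicate block, 500 with median-of-ratios scaling, 514 at a threshold of 0.1, 615 with voom and 1365 with library weights. They ranged from 126 to 447 with a library left out, being 126 without TREM2- replicate 3, 189 when TREM2+ replicate 3 was dropped and 182 when TREM2+ replicate 1 was. With both libraries numbered 3 left out, 0 genes passed in limma and 1080 had an unadjusted p under 0.05. Higher calls made up 84.7% of calls, but 69.1% with the deposited values, 72.4% with voom, 71.5% with library weights and 73.8% once the repeat family was set aside. They made up 92.1% with the replicate block, 96.9% without the filter, and 72.4% to 97.1% with a library left out, the extremes being TREM2+ replicate 2 and TREM2- replicate 1. Among the other pathway genes, the 0 calls became 1 with the deposited values, 2 with a TPM of at least 5, median-of-ratios scaling, voom, the repeat family left out or a threshold of 0.1, and 9 with library weights, and 0 to 2 with a library left out. The median of the nuclear members ranged from -0.16 to 0.05, and of the mitochondrially encoded ones from 0.04 to 1.12, with a library left out. The cause of these shifts was not tested. Over the 50 named genes and their settings, 11 values lost a call, 21 gained one and 901 kept their side of the threshold, and no called gene changed sign. Replicate numbers did not clearly pair the libraries by correlation, but library measures shared an order. Recovered reads fell from replicate 1 to 3 in both groups, from 17175197 to 12550261 in TREM2+ and from 19941627 to 11499655 in TREM2-. The Gm10800 share rose from replicate 1 to 3 in both, and mitochondrial levels were highest in replicate 1 and lowest in replicate 2. With the replicate block, 16 members and 2141 genes had an unadjusted p under 0.05 (limma), against 5 and 1763 in the main fit. After group means were removed, the same numbers correlated at 0.19, -0.03 and 0.22. TREM2+ replicates 1 and 3 correlated best with the TREM2- library of the same number. TREM2+ replicate 2 correlated best with TREM2- replicate 3, at 0.13. Whether libraries of the same number belong together was not settled, and the main fit took no account of the number. Low reads limit Cox6c2, Ndufb4c, mt-Nd4l, mt-Atp8, Cox6a2, Ndufa4l2, Cox7a1, Cox6b2 and Cox4i2, which had under 100 reads in every library.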
